A study of Rattus norvegicus with 32 samples.

Results

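Cytosolic ribosomal protein genes were described across normal mammary glands of 6 groups of rats. The members were the probe sets of the array with 1 gene symbol that begins with Rpl or Rps and a digit, or is Rpsa, Rplp0, Rplp1 or Rplp2, with the S6 kinases left out. There were 63 such probe sets for 43 gene symbols, of 8740 probe sets on the array that are no controls. The choice used names only and no measured value. Of the 63, 61 had enough signal to be tested and stood for 42 genes, and the other 2, both named for the pseudogene Rps2-ps1, had mean signals of 4.98 and 12.4 over the 30 arrays. The tested members include 1 pseudogene symbol, Rps4x-ps9, with a mean signal of 2638. A further 40 probe sets carry several symbols, at least 1 of them of a ribosomal protein gene, and are no members.

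Normal mammary gland RNA of each sample was read on an Affymetrix rat expression array, in a series whose title asks about inherited susceptibility to mammary cancer. Each of 6 groups had 5 arrays: 5 groups were inbred strains, named ACI, BUF/N, Cop, F344 and WF, and the other was an F1 cross between Cop and F344 rats. A pool of Cop and a pool of F344 had 1 array each. No group carries a transgene or a treatment in the labels, which give no age, sex, cycle stage or batch. Whether each of the 5 came from its own animal is not stated, and the p-values therefore cover the variation among these arrays, which may be technical.

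The cytosolic ribosome is built of a small subunit, which reads the mRNA, and a large subunit, which joins the amino acids, and each holds ribosomal RNA and a set of proteins named Rps and Rpl. Most of these mRNAs are among the most abundant in any cell, and many begin with a short run of pyrimidines, the 5' terminal oligopyrimidine tract, through which mTOR signalling controls their translation. In the mammary gland the demand for ribosomes follows the growth and secretory work of the epithelium. Some ribosomal protein genes have paralogs of restricted expression, such as Rpl3l of muscle, and most have many pseudogenes, so that a probe set can read more than 1 transcript, which was not tested here.

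The 30 bases around the annotated transcription start, 15 before it and 15 from it on, are shown from RefSeq's GRCr8 table. The genes shown are the 7 with a probe set on which all F1 arrays lay above all parent arrays. The 2 paralogs whose names the annotation gives to probe sets that were lower in F1 follow. Capitals mark the longest run of C and T within the window, 5' to 3' on the gene's strand.
Rpl3, chr7:113507976-113508005, minus strand: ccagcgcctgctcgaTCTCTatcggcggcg
Rpl6, chr12:41011676-41011705, minus strand: taTTTTTacatcactagatggcgggtgaaa
Rpl23, chr10:83272170-83272199, minus strand: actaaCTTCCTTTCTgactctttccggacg
Rpl27a, chr1:172974558-172974587, plus strand: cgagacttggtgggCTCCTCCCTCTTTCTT
Rps9, chr1:74430423-74430452, minus strand: tccggcggccacgTTTCTCTTTgtcacggg
Rps23, chr2:23814502-23814531, plus strand: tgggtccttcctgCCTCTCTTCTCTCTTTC
Rpsa, chr8:128728864-128728893, plus strand: CCTTTCCgcgctaccctggaacgggtccgt
Rpl3l, chr10:14258431-14258460, plus strand: gacctctggtgcctggtggggaggTCCCTT
Rps27l, chr8:76443643-76443672, plus strand: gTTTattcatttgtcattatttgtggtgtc

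The run was 17 bases in Rps23, 16 in Rpl27a and 10 in Rpl23, against 5 in Rpl3 and Rpl6 and 3 in Rps27l, so the genes with the clearest F1 values did not share it in these windows. Of the 43 member genes 37 had an entry in the table, and Rpl19l4, Rpl27, Rpl30, Rps2-ps1, Rps29 and Rps4x-ps9 had none. From 30 bases before to 20 bases after the start, 27 of the 37 (73.0%) held a run of at least 8 pyrimidines, and 19.9% of all 33469 genes of the table did. The longest run had a median of 10 bases in the members and 5 in all genes. In the 300 bases of the table, 9 of the 37 (24.3%) held CCGGAAG, a core of binding sites of ETS factors, on either strand, and 8.75% of all genes did. Its opposite strand opens with pyrimidines, so the 2 searches can overlap. These matches describe the windows only.

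Members were bright on every array. Of the 61 tested, 51 had a mean signal above 1000, as did 681 of all 5026 tested probe sets. The median member ranked between the 96.2 and 97.6 percentile of all tested probe sets on each array. The highest mean signals over the 30 arrays were those of Rps29 (8741), Rpl3 (7959.6) and Rplp0 (7526), and the lowest among tested members those of Rpl3l (65.3 and 118 on its 2 probe sets) and Rpl5 (86.9). Signals of different probe sets depend on their probes as well as on the RNA, so these ranks set no gene's mRNA level against another's.

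Each array had been scaled by the authors to the same trimmed mean, 250.3 to 250.4, and medians ran from 66.0 to 103. F1 2 and F1 3 stood apart from the other F1 arrays, with correlations across tested probe sets of 0.846 to 0.893 with these and of 0.959 with each other. ACI 2 and ACI 5 did so within ACI, at 0.876 to 0.914 against 0.951 with each other. Both pairs split the members as well. F1 2 and F1 3 were the lowest arrays of F1 for 18 of 61 members and the highest for 26, against 28.5% and 32.0% of all tested probe sets. ACI 2 and ACI 5 were the lowest of ACI for 16 members and the highest for 11, against 22.4% and 31.2% of all. The effect of leaving these 4 arrays out is given with the results.

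In limma's F test across the 6 groups, 35 of the 61 members differed, against 51.8% of all tested probe sets. The members as a whole stood highest in F1. For each array, every member's log2 signal was set against that member's mean over the 30 arrays, and the median of these deviations was taken. It was 0.46, 0.61, 0.28, 0.27 and 0.07 on the 5 F1 arrays, and all of these lay above the 5 Cop arrays (-0.13 to 0.00) and the 5 F344 arrays (-0.19 to 0.06). F1 5, the lowest, was close to the highest parent array, F344 2. The ACI arrays lay between -0.22 and -0.02, the WF arrays between -0.11 and 0.01 and the BUF/N arrays between -0.16 and 0.27, where BUF/N 3 was the highest.

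**Figure D1:**
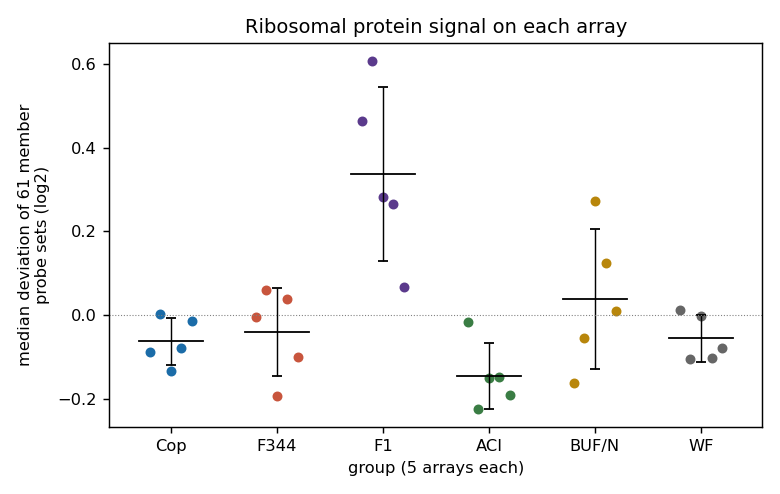
Median deviation of the 61 tested members on each array (y axis, log2, each member set against its own mean over the 30 arrays) for the 6 groups of 5 arrays (x axis). Each point is 1 array, the long bar is the group mean and the error bar the SD, and the F1 mean is 0.34 with an SD of 0.21.

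F1 was compared with the mean of its parents, Cop and F344. Of 61 members 29 were higher in F1 than this mean and 4 lower, against 17.4% higher and 17.9% lower of all tested probe sets in limma's fit with p-values adjusted over all of them. The median change of the members was 0.37 on the log2 scale against 0.02 for all tested probe sets, and 50 of 61 were above 0. By gene, 22 of 42 had a probe set that was higher, 4 had one that was lower, Rpl21 had both, and 17 had neither. Members of the small subunit (19 probe sets, median 0.41, 11 higher) and of the large subunit (42, median 0.32, 18 higher) both lay above 0. Leaving out any 1 array gave 28 to 40 called members and a median of 0.31 to 0.45.

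**Figure D2:**
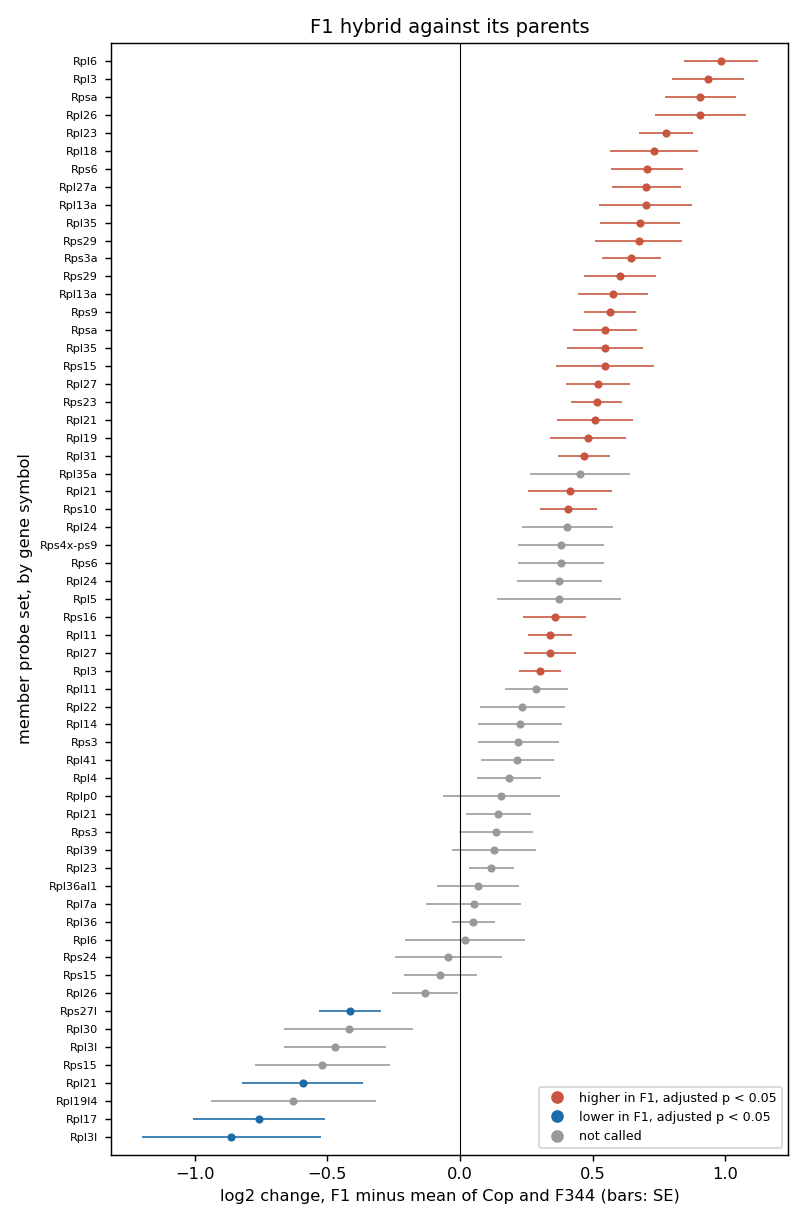
Change of each tested member probe set in F1 (x axis, log2, F1 minus the mean of Cop and F344, bars SE) by gene symbol (y axis, 1 line per probe set). The 29 coloured points to the right are higher in F1 and the 4 to the left lower at an adjusted p under 0.05, and grey points were not called.

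A difference from the mean of the parents does not place F1 outside both of them, so each parent was also compared alone. There, 25 members were higher and 1 lower in F1 than in Cop (13.3% and 13% of all tested), and 28 were higher and 4 lower than in F344 (16.3% and 15.5%, and 31.8% in either direction). These comparisons share the F1 arrays. In both at once, 25 members of 19 genes were higher, against 9.33% of all tested probe sets, and 1 was lower, against 9.39%. All 5 F1 arrays lay above all 10 parent arrays for 7 members, namely Rpl3, Rpl6, Rpl23, Rpl27a, Rps9, Rps23 and Rpsa, against 4.2% of all tested probe sets. For no member did all F1 arrays lie below all parent arrays, against 3.66%.

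In the large subunit, Rpl6 on probe set rc_AA799672_s_at had signals of 9205, 9097, 8159, 8737 and 5679 on the F1 arrays. The Cop arrays gave 4062, 4395, 3623, 3804 and 5119, and the F344 arrays 4308, 4225, 3379, 4386 and 3687. F1 5 was the lowest F1 array and still exceeded the highest parent array, Cop 5. The change was 0.98 (SE 0.138, limma adjusted p = 5.67e-06), a fold of 1.98, and it was called against each parent.

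Rpl3, which helps to shape the peptidyl transferase centre, had 15243, 12169, 10742, 14894 and 8738 in F1 on probe set rc_AA892367_i_at. Cop had 7238, 7328, 5807, 5654 and 8314, and F344 5939, 6484, 5636, 6240.1 and 5283. No parent array reached the lowest F1 array, although Cop 5 came near it. The change was 0.93 (SE 0.136, limma adjusted p = 9.5e-06). On the gene's other probe set, X62166cds_s_at, it was smaller, at 0.30 (adjusted p = 0.0044). There F1 overlapped with the parents, as F1 3 (4448) lay below Cop 5 (4634) and F344 4 (4710).

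Rpl23, a protein of the face that meets the small subunit, had 11793, 12132, 9311, 10348 and 8317 in F1 on probe set X58200mRNA_g_at. Its parents overlapped with each other, at 5309 to 6614 in Cop and 5422 to 6610.1 in F344, and lay below every F1 array. The change was 0.78 (SE 0.102, limma adjusted p = 2.37e-06), and 0.19 (adjusted p = 0.0164) after quantile normalization. The gene's other probe set, X58200mRNA_at, was at 0.12 without a call (adjusted p = 0.29). Rpl27a was at 10598 ± 2564 (SD, n = 5) in F1 against 6428 ± 993 in Cop and 6434 ± 1054 in F344 (0.70), with F1 2 and F1 3 the highest arrays.

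Rpl26, which lies at the exit of the nascent chain, had the widest spread among the members with the largest changes. Its signals were 7720.0, 13982, 9459, 6104 and 4995 in F1 on probe set rc_AA893493_i_at. Those of Cop ran from 3023 to 5687 and those of F344 from 4031 to 5011. F1 2 was the highest array, and F1 5 lay within both parents. The change was 0.91 (SE 0.173, limma adjusted p = 0.000232), and 0.55 (adjusted p = 0.0195) without F1 2, F1 3, ACI 2 and ACI 5.

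In the small subunit, Rpsa, which is also known as the laminin receptor, had 7141, 10779.8, 9442, 6009.9 and 5099 in F1 on probe set D25224_at. Cop lay between 3746 and 4537 and F344 between 3546 and 4341. F1 2 and F1 3 were highest, and the other F1 arrays were also above all parent arrays. The change was 0.91 (SE 0.133, limma adjusted p = 1e-05) and was 0.61 without the 4 arrays that stood apart.

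Rps9, which acts in decoding, was at 8713 ± 1278 (SD, n = 5) in F1, 5811 ± 378 in Cop and 5888 ± 656 in F344 (0.57, SE 0.0982, limma adjusted p = 8.15e-05). Rps23, a protein of the decoding centre, was at 5659.6 ± 1218, 3947 ± 286 and 3837 ± 256 (0.52, SE 0.0962, adjusted p = 0.000186). The lowest F1 arrays, 7094 for Rps9 and 4420.1 for Rps23, were both F1 5. Rps29 was at 12036 ± 2062 in F1 against 7905 ± 1077 in Cop and 7847 ± 729 in F344 (0.60, adjusted p = 0.00127, but -0.13 after quantile normalization). F1 5 (9501) lay below the highest Cop array, 9622. Rps6, the target of the S6 kinases, was higher on 1 probe set (0.70, adjusted p = 0.000262) and at 0.38 without a call on the other (adjusted p = 0.0679), where F1 2 reached 11218 and F1 4 had 3730.4. Without F1 2, F1 3, ACI 2 and ACI 5 these were 0.42, still called, and 0.0050.

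**Figure D3:**
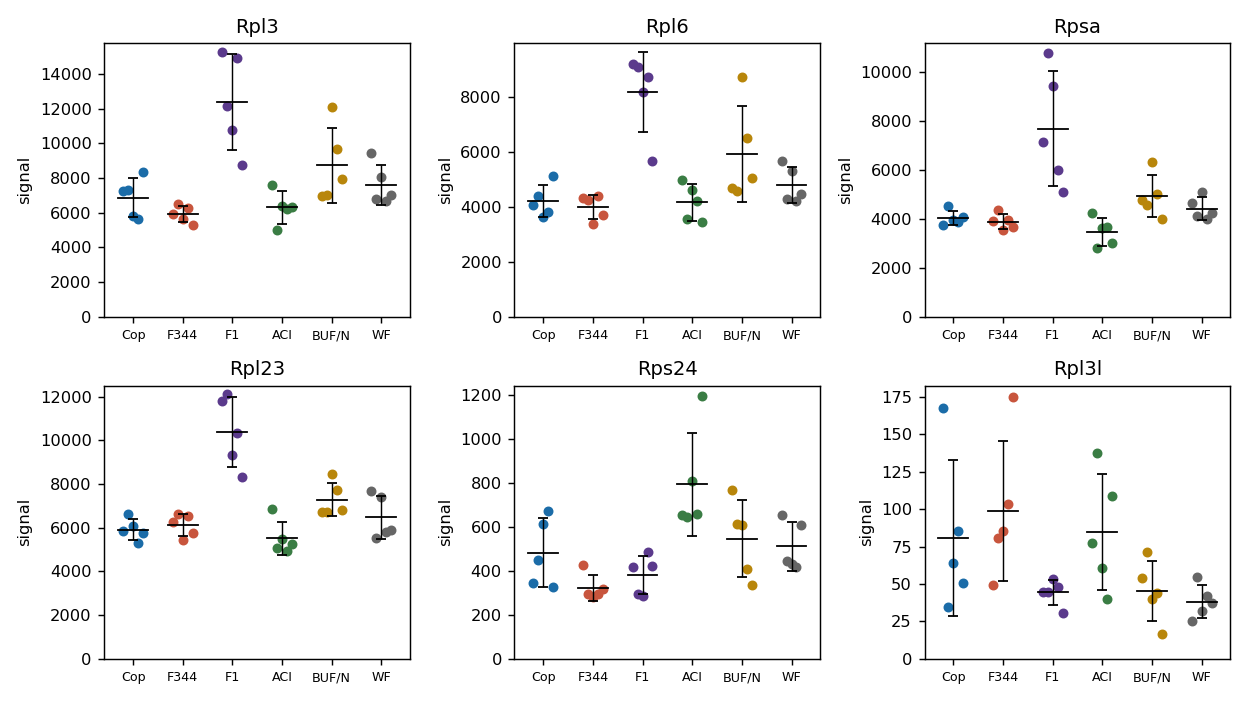
Deposited signal (y axis, linear from 0) of 6 members on each array, by group (x axis), with the group mean as a long bar and the SD as the error bar. Rpl3, Rpl6, Rpsa and Rpl23 are highest in F1, with no overlap with Cop or F344, Rps24 is highest in ACI, and Rpl3l is low in F1, BUF/N and WF.

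Rplp0, the base of the stalk that recruits elongation factors, showed the split within F1 most plainly. It had 13511, 4148, 3601, 12718 and 8908 on the F1 arrays, against 5728 to 7504 in Cop and 6191 to 7848 in F344. F1 2 and F1 3 were below, and the other F1 arrays above, every parent array. The change was 0.16 without a call (limma adjusted p = 0.614), -0.29 after quantile normalization, and 0.79 (adjusted p = 0.0007) without F1 2, F1 3, ACI 2 and ACI 5.

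The 2 proteins that carry 5S ribosomal RNA and bind Mdm2 did not pass on their brightest probe sets. Rpl11 was at 7092 ± 975 (SD, n = 5) in F1, 5709 ± 332 in Cop and 5839 ± 328 in F344 (0.29, limma adjusted p = 0.0592), and its other probe set was called (0.34). Rpl5 was dim, at 96.1 ± 35.0, 79.1 ± 18.4 and 65.2 ± 10.9 (0.37, adjusted p = 0.214). Rpl22, an RNA-binding protein of the large subunit, had 11095, 4977, 4585, 7029.6 and 7759.8 in F1 (0.23, adjusted p = 0.262). F1 2 and F1 3 were again its lowest arrays. After quantile normalization the changes of Rpl11 and Rpl22 turned to -0.16 and -0.15, also without a call. Without the 4 arrays that stood apart, Rpl11 (0.37, adjusted p = 0.022) and Rpl22 (0.56, adjusted p = 0.0083) were called and Rpl5 was not (0.05).

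Of the 4 members that were lower in F1, 2 kept no negative change without F1 2, F1 3, ACI 2 and ACI 5. Rpl17 had 194, 53.2, 45.6, 164 and 202 in F1, against 136 to 207 in Cop and 159 to 222 in F344. The change was -0.76 (SE 0.25, limma adjusted p = 0.0189), and the call ended without F1 2 or without F1 3 (adjusted p between 0.127 and 0.147). With F1 2, F1 3, ACI 2 and ACI 5 left out, it was 0.0081. Rpl21 on probe set X15216cds_s_at had 2962, 912, 726, 2609 and 2216 in F1, against 1918 to 2364 in Cop and 2341 to 3094 in F344. Its change of -0.59 (adjusted p = 0.0425) turned to 0.073 without those 4 arrays. The call of Rpl21 also ended without 1 of F1 2, F1 3, Cop 1, Cop 2, Cop 4, F344 2, F344 3, F344 4 or F344 5 (adjusted p from 0.0526 to 0.282).

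The other 2 carried the names of paralogs. The annotation names 1 of them Rps27l, after a p53 target whose protein is nearly identical to Rps27. This probe set had 1422, 817, 950.1, 1420.0 and 1052 in F1. Cop had 1808, 1387, 1327, 1473 and 1774, and F344 1321, 1393, 1663, 1382 and 1301. F1 2, F1 3 and F1 5 lay below every parent array and F1 1 and F1 4 within them. The change was -0.41 (SE 0.117, limma adjusted p = 0.00703), and this was the only member called lower against both parents. It was -0.20 without a call (adjusted p = 0.219) without F1 2, F1 3, ACI 2 and ACI 5, and the call against F344 ended without any 1 of 22 arrays (adjusted p from 0.0504 to 0.187), which are all but F1 1, F1 4, Cop 1, Cop 3, Cop 5, ACI 5, WF 1 and WF 4. Whether the probe set tells Rps27l from Rps27 was not tested.

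Rpl3l, the muscle form of Rpl3, had 44.5, 44.8, 53.6, 47.9 and 30.8 in F1 on probe set rc_AA891037_g_at. Cop had 167, 34.7, 64.1, 85.6 and 50.5, and F344 49.1, 80.8, 85.2, 104 and 175. The F1 arrays were close together and overlapped with the lower arrays of both parents. The change was -0.86 (SE 0.338, limma adjusted p = 0.0471), opposite to that of Rpl3, and -0.47 without a call on the gene's other probe set (adjusted p = 0.0567). The call ended without 1 of 19 arrays, namely any F1 array, Cop 1, Cop 3, Cop 4, F344 2, F344 3, F344 4, F344 5, ACI 1, BUF/N 1, BUF/N 3, BUF/N 4, WF 3, WF 4 or WF 5 (adjusted p from 0.0505 to 0.11). On rc_AA891037_g_at the change was called against F344 alone and not against Cop alone. Without F1 2, F1 3, ACI 2 and ACI 5 it was -0.98 against the parental mean, without a call (limma adjusted p = 0.0753). Markers of skeletal muscle moved with Rpl3l. Of 11 tested muscle markers 9 were lower in F1 than the parental mean and 0 higher (median -2.61). Against Cop alone 3 were lower (median -1.79) and against F344 alone 11 (median -3.27), with 0 higher in either. The summed signal of the 13 on the array was 361 to 3607 in F1, 759 to 24599 in Cop and 5403 to 27345 in F344. No marker was at the floor in all arrays of a group. The part of muscle tissue in the Rpl3l value was not tested.

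Genes with several probe sets gave unequal values. Of 16 genes with at least 2 tested probe sets, 13 had all of them on the same side of 0, and 6, namely Rpl3, Rpl13a, Rpl27, Rpl35, Rps29 and Rpsa, were called higher on all. Without F1 2, F1 3, ACI 2 and ACI 5 this held for 1 of the 6, Rpl3. Both probe sets of Rpl13a (0.29 and 0.35), Rpl27 (0.21 and 0.29) and Rpl35 (0.35 and 0.19) then lost the call, as did 1 of Rps29 (0.30) and 1 of Rpsa (0.25). Rpl6 was at 0.98 on 1 probe set and 0.02 on the other, S71021_s_at, whose F1 signals were 6655, 1855, 1547, 6166 and 4535. F1 2 and F1 3 were below every other array on this probe set and above every parent array on the first. Without F1 2, F1 3, ACI 2 and ACI 5 the second was at 0.72 (limma adjusted p = 0.0001). Rpl26 gave 0.91 and -0.13, and on the second probe set F1 2 (3593) and F1 3 (2954) were the lowest of the F1 and parent arrays. Rps15 gave -0.52, -0.075 and 0.55, of which the last was called. On that probe set F1 2 and F1 3, at 2493 and 2317, were the highest arrays, and without F1 2, F1 3, ACI 2 and ACI 5 it was at 0.15 without a call (adjusted p = 0.55), while the first was at -0.86 and called (adjusted p = 0.0347). Rpl21 gave -0.59, 0.14, 0.42 and 0.51, of which all but 0.14 were called. The call of 0.42, on rc_AA849648_g_at, ended without 1 of F1 1, F1 2, F1 4, Cop 1, Cop 3, Cop 4, F344 3 or F344 4 (adjusted p from 0.051 to 0.126).

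**Figure D4:**
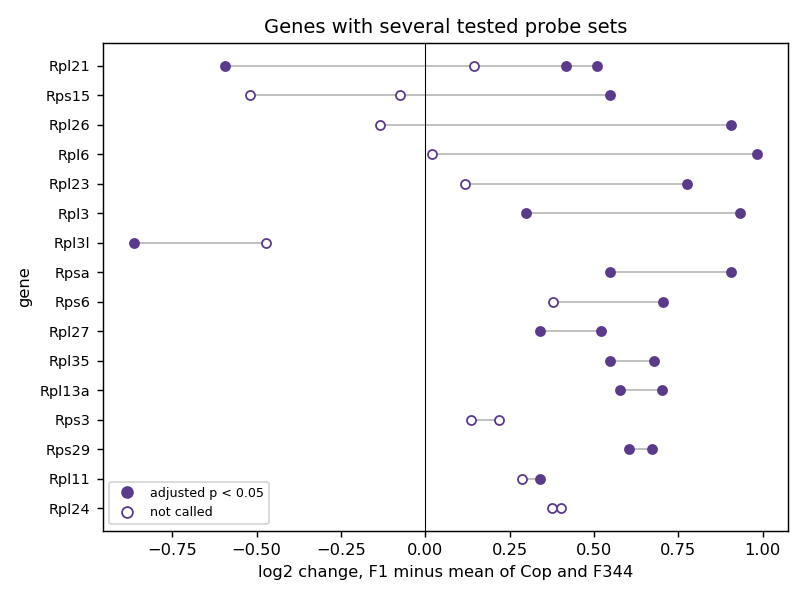
Change in F1 (x axis, log2, F1 minus the mean of Cop and F344) for the 16 genes with at least 2 tested probe sets (y axis). Each point is 1 probe set, filled where the adjusted p was under 0.05, and a line joins the probe sets of a gene, of which Rpl21, Rps15 and Rpl26 lie on both sides of 0.

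The size of the F1 difference depended on how the arrays were scaled. After quantile normalization, which gives all arrays the same spread of signals, 14 members were higher and 5 lower, against 16.2% and 16.3% of all tested, and the median change was 0.045. All 14 were among the 29, with Rpl13a on both probe sets, Rpl6 (0.57, limma adjusted p = 0.0002), Rps6 (0.56), Rpl35 (0.53), Rpsa (0.52) and Rpl26 (0.42) among them. The 5 lower were Rpl17, Rps27l, Rpl21 on X15216cds_s_at, Rps15 on E01534cds_s_at (-0.31) and Rpl26 on X14671cds_s_at (-0.41, adjusted p = 0.0032). Rpl21, Rps15 and Rpl26 were thus called in both directions, on different probe sets. Calls of Rpl3 (0.25, adjusted p = 0.0651), Rpl27a (0.045) and Rps9 (0.053) ended, and Rps29 turned to -0.13. After centring each array on its median, 35 members were higher and 2 lower (21.6% and 14.1% of all tested), with a median of 0.45, and the share of higher among all calls went from 49.3% to 60.5%. Without F1 2, F1 3, ACI 2 and ACI 5, 25 members were higher and 1 lower, against 12.8% and 11.8% of all tested, and the median was 0.29. Of the 29 higher members 12 lost the call and 17 kept it, and 8 others were newly called higher. Rpl17, Rpl21 on X15216cds_s_at, Rps27l and Rpl3l on rc_AA891037_g_at, which had been lower, lost the call. The 1 lower member was newly called, namely Rps15 on rc_AA892895_i_at (-0.86).

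Bright probe sets as a whole were higher in F1. The 99th percentile of signal was 5684 to 7132 on F1 arrays, 4911 to 5260 on Cop arrays and 4550.2 to 5241 on F344 arrays. Among probe sets with a mean signal above 3000, the 39 members had a median change of 0.40, with 59.0% called higher and 0 lower, and the 130 others had a median of 0.25, with 46.9% higher and 13.8% lower. After quantile normalization these medians were 0.04 and -0.07, with 23.1% and 11.5% called higher. The 10 members with a mean signal under 1000 had a median of -0.45, against 0.00 for the others in that range. In both ranges the others leave out the 38 tested probe sets with several symbols, at least 1 of them of a ribosomal protein gene. Of these 38, with mean signals from 856 to 8548, 63.2% were higher in F1 and 0 lower before quantile normalization. For actin, the 3' control probe set over the 5' one gave ratios of 1.27 to 1.98 in F1, 1.10 to 1.72 in Cop and 1.23 to 1.48 in F344. For Gapdh they were 0.868 to 1.07, 0.91 to 1.14 and 0.91 to 1.01. The part of brightness and of RNA quality in the member result was not tested beyond these values.

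**Figure D5:**
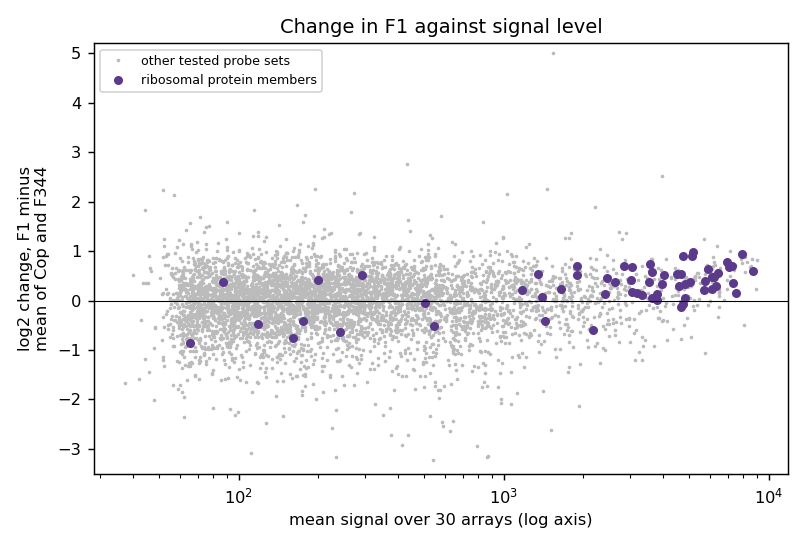
Change in F1 (y axis, log2, F1 minus the mean of Cop and F344) of each tested probe set against its mean signal over the 30 arrays (x axis, log scale). Large points are the 61 members and small points all other tested probe sets, and 37 of the 39 members with a mean signal above 3000 lie above 0.

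Markers of cell types also differed between F1 and its parents. Of 7 tested luminal epithelial markers 6 were higher in F1 than the mean of the parents and 0 lower (median 0.59). Of 9 basal and smooth muscle markers 7 were higher and 0 lower (median 0.70). Against Cop alone, 6 luminal and 7 basal markers were higher and 0 lower (medians 0.91 and 0.79). Against F344 alone, 1 luminal and 6 basal markers were higher and 0 lower (medians 0.32 and 0.71). Of 11 adipocyte markers 1 was higher and 6 lower than the mean of the parents (median -0.39). Against Cop alone 1 was higher and 5 lower (median -0.62), and against F344 alone 1 was higher and 2 lower (median -0.16). Summed adipocyte signal was 22627 to 25499 in F1, 23402 to 29975 in Cop and 22880 to 25287 in F344, so that F1 overlapped with both parents. Summed luminal signal was 4907 to 7834 in F1, 2275 to 4500.3 in Cop and 4360.0 to 6168 in F344, so that F1 overlapped with F344. Summed basal signal was 11925 to 14070.1 in F1, 5371 to 9314 in Cop and 7100.3 to 8519 in F344, with no overlap. No marker of the luminal, basal or adipocyte list was at the floor in all arrays of a group. Of the tested T lymphocyte (8), B lymphocyte (2), mast cell (4), red cell (2) and proliferation markers (5), 0 were called in limma's fit, and 1, of proliferation, had an unadjusted p under 0.05. Of 4 macrophage markers 1 was higher. In whole tissue, fewer cells of a type and less RNA per cell cannot be told apart, and the part of cell makeup in the member result was not tested.

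Other genes of the translation machinery were divided. Of 5 tested elongation factor genes 3 were higher in F1 and 1 lower (median 0.34). The lower one was Eef1a2 (-1.67, limma adjusted p = 0.00704). Its mean signal in F1, 6.58, was under the floor of 18.4, against 66.3 ± 51.0 in Cop and 77.2 ± 45.0 in F344 (SD, n = 5). Eef2, which moves the ribosome along the mRNA, was at 7317 ± 1371 (SD, n = 5) in F1, 4835 ± 635 in Cop and 4968 ± 469.6 in F344 (0.57, limma adjusted p = 0.000194). Eef1a1, which brings the aminoacyl-tRNA, was higher (0.54, adjusted p = 0.0227), and Eef2k, the kinase that inhibits Eef2, was at -0.044 without a call (adjusted p = 0.88). Of 8 tested genes of other mRNAs with a terminal oligopyrimidine tract 4 were higher and 1 lower (median 0.28). Rack1, a scaffold on the small subunit, was higher (0.44, adjusted p = 0.00222), and Vim, the intermediate filament of mesenchymal cells, was lower (-1.20, adjusted p = 0.000284). Eef2 and Eef1a1 are in both lists.

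Initiation factor genes gave 4 higher and 3 lower of 18 tested (median -0.03). The cap-binding protein gene Eif4e was lower (-0.64, limma adjusted p = 0.0262), as was the kinase gene Eif2ak3 (-1.49, adjusted p = 0.0028), and Eif4ebp1, which binds Eif4e, was at -0.46 without a call (adjusted p = 0.0864). The list drawn up for ribosome biogenesis and RNA polymerase I gave 3 higher and 3 lower of 12 (median 0.11). The 3 with the smallest F test p were all lower, namely the nucleolar genes Nop58 (-0.76) and Ddx21 (-0.75), and Nol3 (-0.59). Nol3 was listed by its name and has no settled place in ribosome biogenesis. Genes of growth signalling to the ribosome gave 1 higher and 2 lower of 12 (median 0.02). The lower ones were Mtor (-0.71, limma adjusted p = 0.00212) and Myc (-0.55, adjusted p = 0.032). Pik3r1, a regulatory subunit of phosphoinositide 3-kinase, was the higher one, at 94.8 ± 32.4 in F1 against 35.4 ± 10.9 in Cop and 58.6 ± 11.2 in F344 (1.03, adjusted p = 0.00367), and Rheb, the activator of mTOR, was at -0.22 without a call (adjusted p = 0.207). Of 14 mitochondrial ribosomal protein genes 1 was higher, Mrps31 (0.58, adjusted p = 0.0113), and 0 lower (median 0.24), with Mrpl52 (0.35, adjusted p = 0.0567) and Mrpl50 (0.23, adjusted p = 0.363) not called. The 38 tested probe sets that share a ribosomal protein symbol with other symbols had a median of 0.43, with 24 higher and 0 lower.

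Cop and F344 were compared as the parents of the hybrid. In limma's fit 0 of 61 members differed, against 3.46% of all tested probe sets (1.69% higher and 1.77% lower), and 1 had an unadjusted p under 0.05. The median change was -0.02 against 0.03 for all. The arrays of these strains overlapped for each of the 61 members, as for Rpl6 (4200.4 ± 589.7 against 3997 ± 441) and Rpsa (4033 ± 304 against 3888 ± 305, SD, n = 5). The pools, 1 array each, gave a median log2 ratio of Cop to F344 of -0.11 over the 61 members, from -0.67 to 0.54, against -0.01 for all tested probe sets.

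Each inbred strain was compared with the mean of the other 4, with F1 left out. Cop and WF had 0 called members each in limma's fit, against 11.8% of all tested probe sets in Cop (5.55% higher and 6.21% lower) and 6.19% in WF (3.38% and 2.81%). An unadjusted p under 0.05 was found for 0 and 2 members. F344 had 1 higher and 1 lower, against 12.3% of all (4.42% and 7.86%). ACI had 3 higher and 3 lower, against 8.56% of all (4.22% and 4.34%), and BUF/N 6 higher and 1 lower, against 18% of all (8.42% and 9.63%). Median changes of the members were 0.01 in Cop, 0.05 in F344, -0.17 in ACI, 0.09 in BUF/N and 0.00 in WF, against -0.03, -0.05, 0.06, 0.05 and 0.03 for all tested probe sets.

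Rps24, a small subunit protein needed for the processing of 18S ribosomal RNA, separated strains in opposite directions. It had 655, 645, 809, 661 and 1196 in ACI and 428, 296, 282, 294 and 318 in F344. All ACI arrays lay above all F344 arrays. Cop ran from 325 to 674, BUF/N from 337 to 770.1 and WF from 419.7 to 654, and F1, at 286 to 486, overlapped with both parents. The change was 0.79 in ACI (SE 0.183, limma adjusted p = 0.00636) and -0.79 in F344 (adjusted p = 0.00495). Both comparisons hold the arrays of the other strain. The call in ACI ended without ACI 5 (0.64, adjusted p = 0.0556), the highest array, and that in F344 held without any 1 array.

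Rps15, a small subunit protein of the head, gave the other call in F344 on 1 of its 3 probe sets. On probe set rc_AA892895_i_at it had 545, 1049, 739, 836 and 752 in F344 and 279 to 459.9 in ACI, with no overlap. Cop fell into 923, 942 and 881 on 3 arrays and 317 and 259.6 on the other 2. The change in F344 was 0.71 (SE 0.231, limma adjusted p = 0.041), and the call ended without 1 of F344 2, F344 3, F344 4, F344 5, ACI 2, BUF/N 1 or WF 3 (adjusted p from 0.0501 to 0.138), which left 1 called member. The other probe sets did not share it: rc_AA892895_r_at was at -0.44 without a call (adjusted p = 0.0844), with the lowest mean of the inbred strains in F344 (988), and E01534cds_s_at was at 0.017. With the centred arrays 3 were higher and 1 lower, as the median of all changes moved by 0.15, and with F1 2, F1 3, ACI 2 and ACI 5 left out 3 were higher and 2 lower.

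In ACI the median change of the members was below that of all tested probe sets by 0.22 (-0.17 against 0.06), and by 0.08 after quantile normalization (-0.073 against 0.0044). Rpl13a, which takes part in silencing of inflammatory mRNAs, had 3087, 2183, 2329, 2854 and 2405 in ACI, against 2765 to 4171 in Cop, 3079.6 to 4022 in F344, 3173 to 4251 in BUF/N and 3080.3 to 3710.2 in WF (-0.45, SE 0.121, limma adjusted p = 0.0194). ACI 2, ACI 3 and ACI 5 were below every array of the other strains. Rpl24 (-0.49) and Rpl27 (-0.29) were also lower, each on 1 of 2 probe sets, as was Rpl13a, and Rpl21 on rc_AA849648_at (0.46), Rps27l (0.34) and Rps24 were higher. Without ACI 2 or without ACI 5 there was 1 called member, and also 1 without F1 2, F1 3, ACI 2 and ACI 5. The call of Rpl24 also ended without ACI 1 or ACI 3, that of Rpl27 without ACI 1, and that of Rps27l without any 1 of 15 arrays, namely every ACI array, Cop 2, Cop 3, F344 1, F344 2, F344 4, F344 5, BUF/N 2, BUF/N 4, BUF/N 5 or WF 5 (adjusted p from 0.0506 to 0.153). Centring on the median moved all changes in ACI by -0.17 and gave 1 higher and 13 lower members with a median of -0.33, and the share of higher among all calls went from 49.3% to 16.1%.

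In BUF/N, 6 of 61 members were higher than in the other strains, a share near the 8.42% of all tested probe sets. They were Rpl6 on rc_AA799672_s_at (0.43, limma adjusted p = 0.0174), Rpl3 on rc_AA892367_i_at (0.37), Rps29 on X59051cds_s_at (0.37), Rpsa on D25224_g_at (0.33), Rps10 (0.31) and Rpl23 on X58200mRNA_g_at (0.28). The other probe sets of Rpl3 (-0.055), Rps29 (-0.017) and Rpl23 (0.015) were near 0, and those of Rpl6 (0.26) and Rpsa (0.31) were not called. Rpl6 had 4669.6, 4576, 8701, 6511 and 5053 in BUF/N. There BUF/N 3 reached the level of F1, BUF/N 4 lay above the lowest F1 array, and BUF/N 1, BUF/N 2 and BUF/N 5 lay within Cop. Rpl3 had 6965, 6994, 12103, 9646 and 7908, again with BUF/N 3 and BUF/N 4 highest. Without BUF/N 3 or without BUF/N 4 there was 1 called member, and the call of Rps29 ended without BUF/N 2 as well. The 99th percentile of signal was highest within BUF/N on these 2 arrays, at 6008 and 5305, and its part in the result was not tested. Of 7 tested luminal markers 6 were higher in BUF/N (median 0.62) and of 11 adipocyte markers 4 were lower (median -0.33), and their part was not tested. After centring on the median 0 were higher and 1 lower in limma's fit, without F1 2, F1 3, ACI 2 and ACI 5 11 were higher and 3 lower, and with both changes 1 was higher and 6 were lower. Rpl21 on rc_AA849648_g_at was lower in BUF/N, at 132 ± 32.7 (SD, n = 5), than in the other strains, at 170.0 to 222 (-0.60, adjusted p = 0.00437), and this call held without any 1 array.

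Members moved together within groups to a small extent. With each group's mean removed, the 1830 pairs of members had a median correlation of 0.16 over the 30 arrays, and 63.0% of pairs were above 0, against 0.00 and 50.4% for all pairs of tested probe sets. The pairs share arrays and scaling, so this is a description. Rpl35 (0.39), Rpsa (0.38) and Rpl6 (0.36) had the highest median correlations with the other members. Rpl19l4 (-0.19), Rpl21 on X15216cds_s_at (-0.10) and Rps24 (-0.10) had the lowest.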

How the data were processed

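The deposited values were linear signal intensities, 1 per probe set and array, made by the authors from 5 µg of total RNA with Microarray Suite 5.0, per the labels. The files showed each array scaled to a common mean after trimming 2% at each end, and no other normalization between arrays. Of 8799 probe sets, 59 were controls. Gene symbols came from the array's annotation, updated through the RefSeq gene table (GRCr8) for 6994 probe sets, and 7018 had 1 symbol, 308 several and 1473 none. Rps9 kept the array's symbol, since the table lists that symbol under another gene ID, and its start window was matched by symbol alone.

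A floor of 18.4, the 25th percentile over all arrays, was applied before the log2 transform, and probe sets with at least 5 of 30 arrays above the overall median (78.9) were tested. One limma model (version 3.58.1, R 4.3.3) with a variance trend held the 30 single-sample arrays, and Benjamini-Hochberg adjustment ran over all 5026 tested probe sets, with a threshold of 0.05. The 2 pools were left out. The number of arrays limits the precision. The fit was tested on simulated data. No column of the files was left unused by the mapping.

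Named members were the 8 with the smallest adjusted p in the F test, up to 3 per direction with the largest change in each comparison, the 3 brightest and 3 dimmest, a list of members of known role with the paralogs, probe sets of a gene that differed, and of each pathway list up to 3 genes with the smallest F test p. Some further members and genes of the lists are named beside a count, chosen after their values were seen. The members, gene lists and tests were chosen with earlier results of these data known. Alternatives were other floors, an offset, other filters, quantile normalization, median centring, blocking on the replicate number, weighted arrays, no trend, fewer arrays and each array left out. Median centring without F1 2, F1 3, ACI 2 and ACI 5 was added after the data were seen.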

Additional observations from a re-analysis of the deposited data

Results flagged for a closer look

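A named member was flagged where 1 array of a group lay far from the other 4, measured as its gap to the nearest array over the range of the group on the log2 scale. Of 168 sets of 5 values checked, 6 were flagged, and chance flags about 1 in 20. In WF, Rpl11 was highest on WF 1 (0.738 of the range), at 13.11 against 12.72 on the next array, and Rpl22 was lowest on WF 3 (0.768), at 12.04 against 12.46. Rpl6 was lowest on F1 5 (0.75), at 12.47 against 12.99, while still above every parent array. In F344, Rps24 was highest on F344 1 (0.716), at 8.74 against 8.31, and Rps27l on F344 3 (0.722), at 10.70 against 10.44. Rps27l was also highest on ACI 5 (0.849), at 10.96 against 10.78. The differences that these arrays enter are given with each array left out.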

How the results depend on the processing

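Of the alternatives to the counts and medians of the members, 763 kept the result, 20 gave a lower and 14 a higher count, and 5 moved a median by over the spread between arrays (0.13). Quantile normalization gave 19 called members for F1 against the mean of its parents (median 0.045), 14 against Cop (0.046) and 15 against F344 (0.049), 4 in F344 and 1 in WF. Under it Rps29 turned to -0.13 against the parental mean, -0.093 against Cop and -0.17 against F344. Median centring gave 4 in F344 (median 0.20), 14 in ACI (-0.33) and 1 in BUF/N, and moved the median of all changes by 0.10 in Cop, 0.15 in F344 and -0.17 in ACI. With it the share of higher among all calls went from 47.2% to 67.6% in Cop, 36.0% to 69.6% in F344 and 46.6% to 34.5% in BUF/N, and from 50.6% to 62.5% for F1 against Cop. Array weights gave 10 in F344 and 19 in BUF/N, no filter 1 and 4, and no variance trend 4 in BUF/N. Without F1 2, F1 3, ACI 2 and ACI 5 there were 1 in Cop, 5 in F344, 1 in ACI, 14 in BUF/N and 1 in WF, and with centring as well 6 in Cop, 8 in F344, 1 in ACI and 1 in WF. Only the arrays compared gave 1 for Cop against F344. Rpl17 in F1 turned to 0.0081 without those 4 arrays and 0.027 with centring as well, and Rpl21 (X15216cds_s_at) to 0.035 with array weights, 0.073 without the 4 arrays and 0.091 with centring as well. The cause was not tested. Leaving out 1 array gave 1 to 3 called members in F344, 1 to 7 in ACI and 1 to 8 in BUF/N. With the replicate number as a block 32 members were called for F1, 27 against Cop, 30 against F344, 3 in F344, 4 in ACI and 7 in BUF/N. The numbers did not pair the samples: same-numbered arrays correlated at -0.45 to 0.40 (median -0.02, 75 pairs), and 5 of 30 arrays correlated best with their own number.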
